A study of Caenorhabditis elegans with 2 samples.

Results

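The DREAM complex and synMuv B genes considered here are lin-9, lin-37, lin-52, lin-53, lin-54, lin-35, efl-1, dpl-1, lin-13 and lin-36, 10 of the 19973 protein-coding genes on the 6 nuclear chromosomes of Caenorhabditis elegans. They were chosen by name, as a functional group, at a time when the HAM-2 peak signals and ranks of these data were already known, so their values are given as a description, without a test. The data are chromatin immunoprecipitation sequencing (ChIP-seq) peaks from whole embryos of strain OP639. Its transgene wgIs639 carries ham-2 joined to TY1, EGFP and 3xFLAG tags, plus an unc-119(+) rescue, in the unc-119(tm4063) mutant, and an anti-GFP antibody was used. The single group holds 2 libraries, biological replicates 6 and 7, both from mixed-stage, mixed-sex embryos obtained by bleaching, with a labelled age of 3 hours. All libraries carry the tagged protein, so no condition was compared with another, and both come from the same transgenic line. Signal from whole embryos cannot tell a few strongly bound cells from many weakly bound ones.

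HAM-2 is a zinc-finger protein known for its part in the migration of the HSN motor neurons. DREAM is a repressor complex that joins an E2F and DP pair and a retinoblastoma-like pocket protein to a core of MuvB proteins, and it keeps cell-cycle and germline genes low. In worms these genes belong to class B of the synthetic multivulva (synMuv) genes, whose loss together with a class A gene produces extra vulvae. LIN-54, the DNA-binding MuvB protein, recognises the CHR element, read as TTTGAA or TTCGAA, while E2F proteins recognise GC-rich words such as GCGCGAA.

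The DNA around 4 summits is given first, to show 3 of the 5 windows in which words are counted further on and, for lin-52, a window that is not among those counted. Each sequence runs from 50 bases before to 50 after a summit, read 5′ to 3′ on the strand of the gene named, from the RefSeq genome of WBcel235, which is the assembly called ce11 in the labels. Those of lin-13, lin-36 and lin-9 lie in the reproducible set, the peaks kept by the submitters' cut on the irreproducible discovery rate (IDR), and that of lin-52 is the strongest pooled peak among the 5 genes without a reproducible summit. Capitals mark E2F-type and CHR words, GAGAGA, and the word GGTCTCG or its reverse complement CGAGACC.
lin-13, chrIII:7710257-7710357, minus strand: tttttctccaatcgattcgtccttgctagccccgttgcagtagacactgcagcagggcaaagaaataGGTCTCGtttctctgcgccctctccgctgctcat
lin-36, chrIII:8021114-8021214, minus strand: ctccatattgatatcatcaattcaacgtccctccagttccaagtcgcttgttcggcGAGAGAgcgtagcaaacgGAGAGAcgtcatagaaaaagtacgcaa
lin-9, chrIII:8904202-8904302, minus strand: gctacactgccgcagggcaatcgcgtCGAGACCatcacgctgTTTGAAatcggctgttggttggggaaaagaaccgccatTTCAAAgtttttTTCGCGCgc
lin-52, chrIII:9825161-9825261, minus strand: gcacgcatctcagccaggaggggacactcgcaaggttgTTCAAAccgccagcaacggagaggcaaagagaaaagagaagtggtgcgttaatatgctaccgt

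Of the 10 genes, 5 had a reproducible summit between 2000 bp upstream of the annotated 5′ end and the far end of the gene, 1 each: lin-13, lin-36, lin-53, lin-9 and lin-54. All 5 summits lay upstream, from 121 to 816 bp before the 5′ end. The same window held a reproducible summit at 9% of all protein-coding genes, and since the genes were chosen with these peaks known, nothing is read from the difference. The windows of the 10 genes have a median length of 5275.5 bp, against 4027 bp over all genes. Among all pairs of a gene and a reproducible summit in its window, 64.0% were upstream of the 5′ end (1328 of 2076).

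In the lists that include background, every one of the 10 genes had a summit: 27 summits in the pooled list, 26 in that of replicate 6 and 26 in that of replicate 7. This says little on its own, because 64% of all genes had one in the pooled list, 63.7% in replicate 6 and 68.1% in replicate 7. The strongest pooled signal per gene had a median of 104.9 over the 10 genes and 36.6 over all protein-coding genes, with genes without a summit counted as 0. Here too nothing is read from the difference, since the genes were chosen with these signals known. Signals are the caller's own values, and they served to rank peaks within a list, since neither their scaling nor the number of reads per library is stated.

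**Figure D1:**
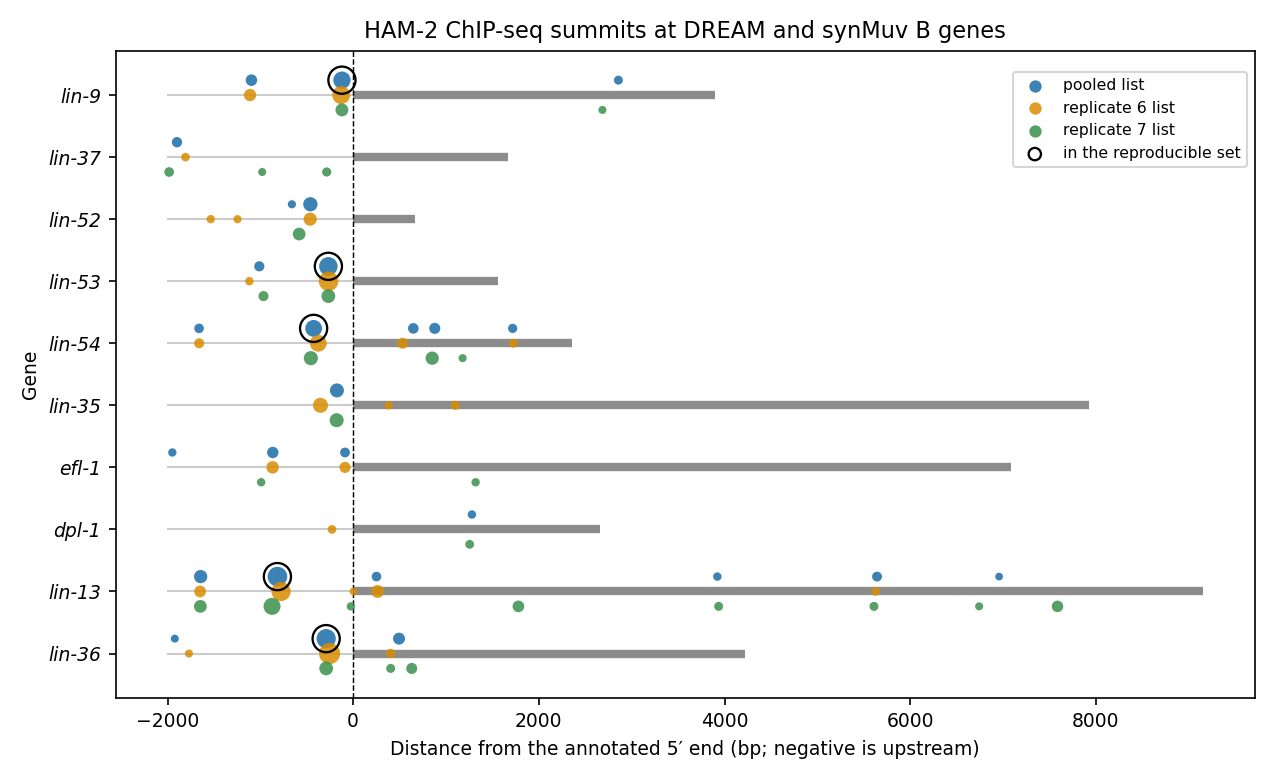
Summits at the 10 genes by distance in bp from the annotated 5′ end, for the pooled, replicate 6 and replicate 7 lists. The thin line is the 2000 bp upstream part of the window, the thick line the gene body, and marker area grows with the signal relative to the median of its own list. The 5 summits of the reproducible set, ringed, lie 121 to 816 bp upstream.

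The MuvB core genes were split, 3 of 5 with a reproducible summit. At lin-53, which encodes a histone-binding WD-repeat protein that also works in other chromatin complexes (WBGene00003036, chromosome I, 9618196 to 9619760, minus strand), the peak from 9619817 to 9620236 had its summit 267 bp upstream. Its signal was 146.7 in the pooled list, 100.9 in replicate 6 and 45.8 in replicate 7, with ranks 1039, 931 and 1938. The summit position was nearly fixed, at 265 bp upstream in replicate 6 and 267 bp in replicate 7.

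At lin-9, a MuvB scaffold gene (WBGene00002998, chromosome III, 8900237 to 8904131, minus strand), the peak from 8904042 to 8904461 had its summit closest of the 5 to an annotated 5′ end of its gene, 121 bp upstream. Signal was 128.6 in the pooled list, 85.3 in replicate 6 and 40.3 in replicate 7. The replicates placed it differently within their lists: rank 1269 in replicate 6 lies inside the strongest 1945, the size of the reproducible set, and rank 2749 in replicate 7 lies outside. A weaker upstream summit was listed 1096 bp upstream in the pooled list (signal 58.6) and 1111 bp upstream in replicate 6 (41.0), and no summit of replicate 7 in the lin-9 window lay near it.

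The third, lin-54 (WBGene00003037, chromosome IV, 13241044 to 13243401, plus strand), had the weakest of the 5 reproducible signals. Its peak from 13240408 to 13240827 had a signal of 121.5 in the pooled list, 75.0 in replicate 6 and 48.2 in replicate 7, with ranks 1488, 1607 and 1701, the 2 replicates thus giving similar ranks. The summit, 426 bp upstream, fell 376 bp upstream in replicate 6 and 456 bp upstream in replicate 7. Weaker summits were also listed inside lin-54: the strongest of replicate 7 there, 851 bp past the 5′ end, had a signal of 42.7 (rank 2335), and the strongest of replicate 6, 532 bp past it, had 32.8 (rank 7794).

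Neither lin-52 nor lin-37 had a reproducible summit. The small MuvB protein LIN-52 is known from its human counterpart to link the core to the pocket protein. Its gene (WBGene00003035, chromosome III, 9824083 to 9824750, minus strand) had a pooled summit 461 bp upstream with a signal of 88.3, rank 2722, where the lowest signal of the reproducible set was 105.3. Signals were 46.6 in replicate 6, 463 bp upstream, and 39.4 in replicate 7, 582 bp upstream, both outside the strongest 1945 of their lists (ranks 3846 and 2968). That pooled summit lies in a coding exon of ZK632.9, whose own 5′ end is nearer, at 221 bp. At lin-37 (WBGene00003022, chromosome III, 7070890 to 7072552, minus strand) the strongest signals were close to the list medians, 47.3 in the pooled list, 20.8 in replicate 6 and 23.4 in replicate 7, against medians of 40.3, 24.9 and 22.5. They lay 1806 to 1982 bp upstream, and the pooled summit fell in a coding exon of ZK418.13, on the far side of ZK418.5.

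The pocket protein gene lin-35, the only retinoblastoma-family gene of the worm (WBGene00003020, chromosome I, 5807709 to 5815637, plus strand), had no reproducible summit but a replicate 7 summit among the strongest 1945. Signal was 85.2 in the pooled list at 175 bp upstream, 60.4 in replicate 6 at 352 bp upstream and 47.6 in replicate 7 at 178 bp upstream. Their ranks were 2941, 2417 and 1755. The replicate 7 summit lay 3 bp from the pooled one and that of replicate 6 lay 177 bp from it, beyond the match distance of 100 bp. The pooled peak, from 5807324 to 5807743, is also in the window of vps-51, a divergent neighbour with 417 bp between the genes.

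Neither the E2F nor the DP partner had a reproducible summit. At efl-1, an E2F gene (WBGene00001161, chromosome V, 16958590 to 16965675, minus strand), the strongest pooled summit was 866 bp upstream with a signal of 57.1 (rank 6733), above the list median of 40.3, and 42.0 in replicate 6 at 868 bp upstream (rank 4656), above that list's median of 24.9. In replicate 7 the strongest was 17.8 at 991 bp upstream, rank 24353 of 30000 and below that list's median of 22.5. The replicates thus differ at efl-1. The pooled summit lies 273 bp from the 5′ end of fbxa-90, an F-box gene on the opposite strand. A weaker summit 88 bp upstream of efl-1 was listed with 43.0 in the pooled list and 33.8 in replicate 6 (rank 7318). Replicate 7 had no summit near that place. The DP gene dpl-1 (WBGene00001061, chromosome II, 9169910 to 9172565, plus strand) had the lowest pooled value of the 10 genes, 32.3 at 1279 bp past the 5′ end. Replicate 7 had 19.5 nearby, at 1255 bp past it, whereas the summit of replicate 6, with 21.1, was another one, 228 bp upstream. Each was under the median of its list. Its 5′ end lies inside T23G7.2, on the opposite strand, and the single pooled summit was in a coding exon of dpl-1.

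Both synMuv B genes outside DREAM's core subunits had a reproducible summit, and in the pooled list theirs were the strongest of the 10 genes. That order did not hold in each replicate: lin-53 exceeded lin-13 in replicate 6, and lin-54, lin-35 and lin-53 exceeded lin-36 in replicate 7. LIN-13 is a zinc-finger protein that works with the heterochromatin protein HPL-2. Its gene (WBGene00003002, chromosome III, 7700338 to 7709491, minus strand) had a peak from 7710097 to 7710516 with a signal of 164.6 in the pooled list, 97.5 in replicate 6 and 69.2 in replicate 7. Ranks were 824, 998 and 725, high in both replicates. This summit was also the furthest from its 5′ end, 816 bp upstream, and it shifted from 777 bp in replicate 6 to 874 bp in replicate 7. A second, weaker upstream summit stood at nearly the same place in every list, 1643, 1649 and 1646 bp upstream, with signals of 76.6 in the pooled list, 37.6 in replicate 6 and 39.5 in replicate 7. Its ranks were 3555, 5840 and 2954, and it is not in the reproducible set.

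LIN-36 is a THAP-domain protein. Its gene (WBGene00003021, chromosome III, 8016648 to 8020873, minus strand) had a peak from 8020954 to 8021373, with its summit 291 bp upstream and signals of 158.4 in the pooled list, 117.4 in replicate 6 and 45.8 in replicate 7. Replicate 6 ranked it 689, the best replicate 6 rank of the 10 genes, and replicate 7 ranked it 1943, almost at the end of the strongest 1945. A weaker summit inside the gene, 494 bp past the 5′ end, had a pooled signal of 62.8 (rank 5391). The replicates placed it differently. Replicate 6 had 24.4 at 404 bp past the 5′ end, against a list median of 24.9. Replicate 7 had 20.3 at 404 bp and 29.9 at 631 bp, against a list median of 22.5.

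**Figure D2:**
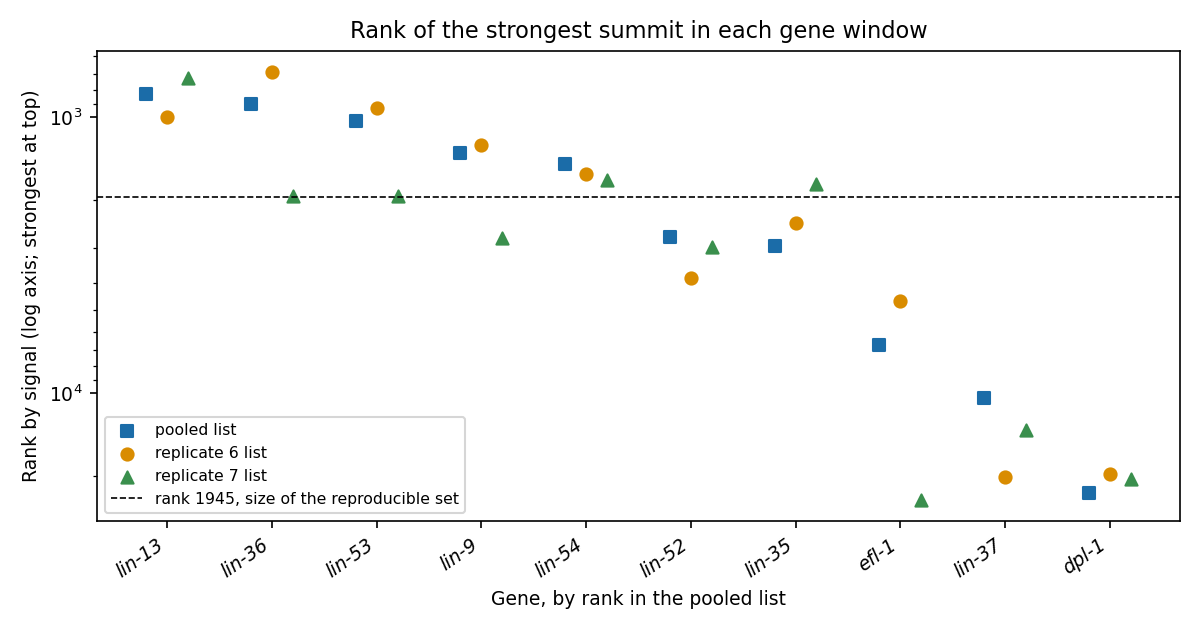
Rank by signal, on a log axis with the strongest at the top, of the strongest summit in each gene window in the pooled, replicate 6 and replicate 7 lists. The dashed line is rank 1945; lin-13, lin-36, lin-53, lin-9 and lin-54 lie above it in the pooled list and in replicate 6, and lin-35 in place of lin-9 in replicate 7.

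Within the reproducible set the 5 peaks were of middle strength. Their pooled ranks ran from 824 to 1488 of 1945 and their median signal was 146.7, against a median of 152.4 for the set, whose highest value was 1164. The closest gene inside the threshold was lin-54 at 121.5, and the closest outside were lin-52 at 88.3 and lin-35 at 85.2, on either side of the lowest reproducible signal of 105.3. All 5 peaks had a width of 420 bp, which the caller also gave to 1505 of the 1945, so their widths carry no information on the extent of binding.

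All 5 reproducible summits had a summit within 100 bp in both replicates, as did 1831 of the 1945 in the set (94.1%). The distance was 0 to 58 bp in replicate 7 and 2 to 50 bp in replicate 6. Of the 5, lin-36, lin-53, lin-9 and lin-54 ranked better in replicate 6 than in replicate 7, and lin-13 did the reverse; of the 1831 matched peaks 977 (53.4%) ranked better in replicate 6. The log2 ratio of the signal in replicate 6 over replicate 7 was 1.36 at lin-36, 1.14 at lin-53, 1.08 at lin-9, 0.64 at lin-54 and 0.49 at lin-13, with a median of 0.70 over the matched peaks. The lists' signals are not on a common scale, so the ratios compare peaks with one another only. When the 1945 strongest peaks of a single replicate were used, 5 of the 10 genes had a summit in replicate 6 (9.09% of all genes) and 5 in replicate 7 (8.72%), with lin-13, lin-36, lin-53 and lin-54 in both, lin-9 in replicate 6 alone and lin-35 in replicate 7 alone.

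**Figure D3:**
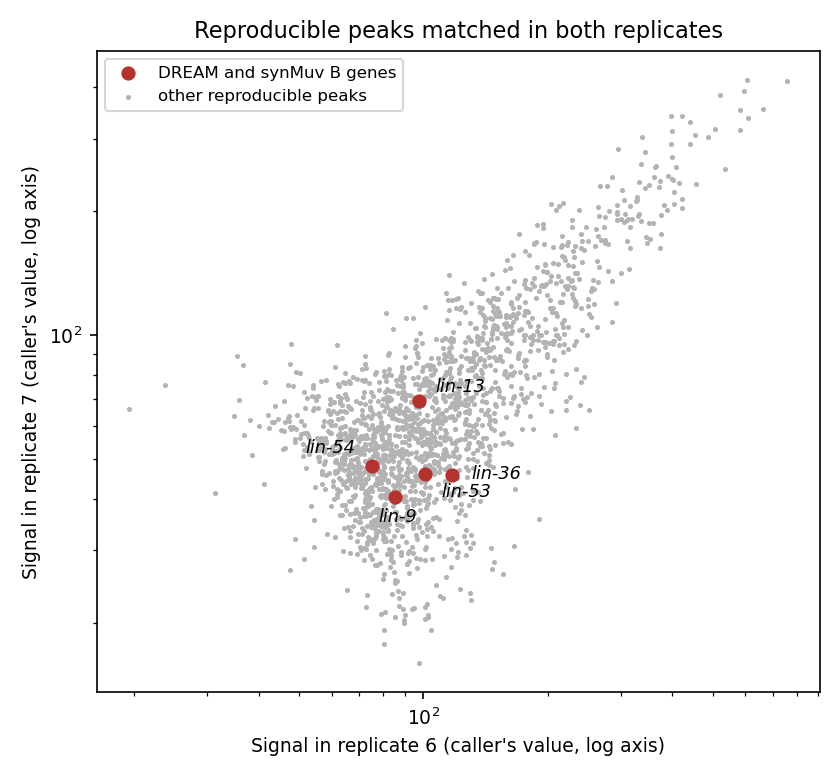
Signal in replicate 6 against replicate 7, on log axes, for the 1831 reproducible peaks with a summit within 100 bp in both replicates. The 5 peaks at DREAM and synMuv B genes, named, lie in the body of the cloud, with 75.0 to 117.4 in replicate 6 and 40.3 to 69.2 in replicate 7.

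The summits of lin-36, lin-53, lin-9 and lin-54 also fell in the window of another protein-coding gene. Over the whole set, the 1945 summits made 2076 pairs with windows of protein-coding genes. The share of all reproducible summits with a shared window, or nearest to another gene, is not given here. The placements below are thus a description of single peaks, not a trait of this group. The lin-13 summit was in no other gene's window, and the 5′ end nearest to it is that of lin-13. At lin-36 the summit lay 57 bp upstream of the noncoding RNA gene F44B9.11 on the same strand and 1299 bp upstream of F44B9.2. The lin-9 summit was also 1363 bp upstream of unc-32, a vacuolar proton pump subunit gene on the opposite strand. The lin-53 summit lay between divergent genes whose 5′ ends are 467 bp apart, and it was nearer to nra-2 (200 bp upstream) than to lin-53. It also fell in the window of rba-1, the tandem paralogue of lin-53, at 1920 bp upstream. At lin-54 the pooled summit lay 33 bp inside the divergent ribosomal protein gene rpl-12, in an untranslated exon. It was also in the windows of tag-115 (1204 bp upstream) and of the snoRNA gene JC8.15 (1541 bp upstream). The replicates differ here: rpl-12 ends at 13240651, with the replicate 7 summit inside it at 13240588. The replicate 6 summit, at 13240668, lay between rpl-12 and lin-54. Among protein-coding genes, 3 of the 5 peaks (lin-13, lin-36 and lin-9) are nearest to the 5′ end of the gene named, and 2 are nearer to nra-2 and rpl-12. Which gene a shared peak acts on was not tested.

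The words of the DREAM factors were found at 2 of the 5 summits. Each word was counted on both strands within 50 bases of the summit, where TTCGAA reads the same on both and GCGGGAA can overlap the word GGCGGGA. At lin-9 the window held TTTGAA at 2 places and GCGCGAA once, and GCGCGAA was present in 1.85% of all reproducible windows and in 0.561% of equal windows just upstream of all coding genes. At lin-53 it held TTTGAA once. That word occurred in 9.56% of reproducible windows and in 29.1% of upstream windows. No window of the 5 held GCGGGAA (1.85% of reproducible windows), nor GGCGGGA (1.59%), nor TTCGAA (3.39%). With any E2F-type or CHR word counted, the share was 16.9% of reproducible windows and 34.9% of upstream windows. Matches are given as letters in a window, not as sites.

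Other words were looked for in the same 5 windows. GAGAGA stood at 2 places in the lin-36 window and in none of the other 4 (25.1% of reproducible windows, 8.86% of upstream windows), and the telomere-type TTAGGC in none (8.69% and 1.87%). Every word of 7 bases present in at least 3 of the 5 windows was then listed, after the windows had been seen. There were 3: GGTCTCG at lin-13, lin-53 and lin-9, TTTTCTC at lin-13, lin-53 and lin-54, and TTTTTCT at lin-13, lin-36 and lin-54. GGTCTCG occurred in 2.16% of reproducible windows, in 0.566% of equal windows 250 bp downstream of those summits and in 0.836% of upstream windows, whereas TTTTCTC and TTTTTCT were less common at summits (7.40% and 6.38%) than upstream of genes (11.5% and 19.4%). The windows of lin-13 and lin-9 share the 9 bases GCAGGGCAA as well, found in 2 of the 1945 windows, these 2. GC content was 53.5% at lin-9 and lin-54, 52.5% at lin-13, 48.5% at lin-53 and 46.5% at lin-36, against a median of 49.5% over all reproducible windows and 32.7% upstream of all coding genes.

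In the promoters of all 10 genes, taken as 250 bases before to 50 after the annotated 5′ end, an E2F-type word was present at lin-9, lin-53 and efl-1, 3 of 10, and in 6.19% of all promoters. A CHR word was present in 7 of 10 and in 68.9% of all promoters, so most promoters hold one. These stretches are set by distance alone and can include another gene. A same-strand gene lies 60 bp upstream of lin-37 and 126 bp upstream of lin-52, and the 5′ end of dpl-1 lies inside T23G7.2. The CHR words counted at lin-37 and dpl-1 thus need not lie in promoters of these genes. Of the 3 genes with an E2F-type word, lin-9 and lin-53 have a reproducible summit and efl-1 has none. At lin-53 the word lies 143 bp upstream, outside the window around the summit at 267 bp upstream.

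Genes of related function were taken from 7 lists of 62 genes in all. In the same window a reproducible summit was present at 5 of the 10 members, at 11 of these 62 genes (17.7%) and at 9% of all genes, and no list was tested. Windows were not matched for length, and a longer window gives more room for a summit. Some of the 62 genes are long, such as sos-1, which runs from 4516944 to 4549291. Nothing is read from the differences between these shares. Of the 4 synMuv A genes, 1 had a summit, lin-8, with a signal of 137.1 at 1120 bp upstream, in a window shared with lido-13. Of 9 other synMuv B genes, 1 did: tam-1, a RING-finger and B-box gene with 2 reproducible summits, the stronger with 160.5 at 99 bp upstream, rank 772 in replicate 6 but 7592 in replicate 7. Of 4 synMuv C genes, which belong to the Tip60 acetyltransferase complex, epc-1 did, also with 2, the stronger with 190.4 at 22 bp past the 5′ end, in a window shared with Y111B2A.12. Of 6 synMuv suppressors, mrg-1, a chromodomain gene, did, with 239.4 at 234 bp upstream, in a window shared with spcs-2, and ranks of 261 in replicate 6 and 880 in replicate 7.

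Cell cycle and replication genes, many of them known DREAM or E2F targets in other animals, had a reproducible summit at 4 of 22. The cyclin E gene cye-1 had 418.2 at 1046 bp past its 5′ end, in a window shared with pqn-21. That was more than any of the 10 members, with ranks of 102 in replicate 6 and 109 in replicate 7. The kinase gene cdk-4 had 155.3 at 245 bp upstream (shared with F18H3.1), the replication helicase gene mcm-4 had 109.9 at 110 bp upstream, and the kinase inhibitor gene cki-1 had 107.1 at 231 bp upstream. The last 2 were near the lowest reproducible signal, and mcm-4 ranked 1414 in replicate 6 and 4642 in replicate 7. Of 11 genes of EGF and Ras signalling, the pathway that synMuv genes counter in the vulva, 3 had a summit. The Ras gene let-60 had 521.0 at 1411 bp upstream, in a window shared with ZK792.7 and ZK792.12, the exchange factor gene sos-1 had 290.4 at 1288 bp upstream, and the kinase gene mpk-1 had 197.1 at 4390 bp past its 5′ end. None of the 6 P granule genes had one, and the strongest pooled signal there was 77.4, at pgl-1. The median of the strongest pooled signal per gene was 104.9 for the 10 members and from 51.6 (synMuv suppressors) to 82.0 (other synMuv B) in the 7 lists. The member median falls between lin-54 (121.5) and lin-52 (88.3). Since the members were chosen with these signals known, nothing is read from the difference.

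**Figure D4:**
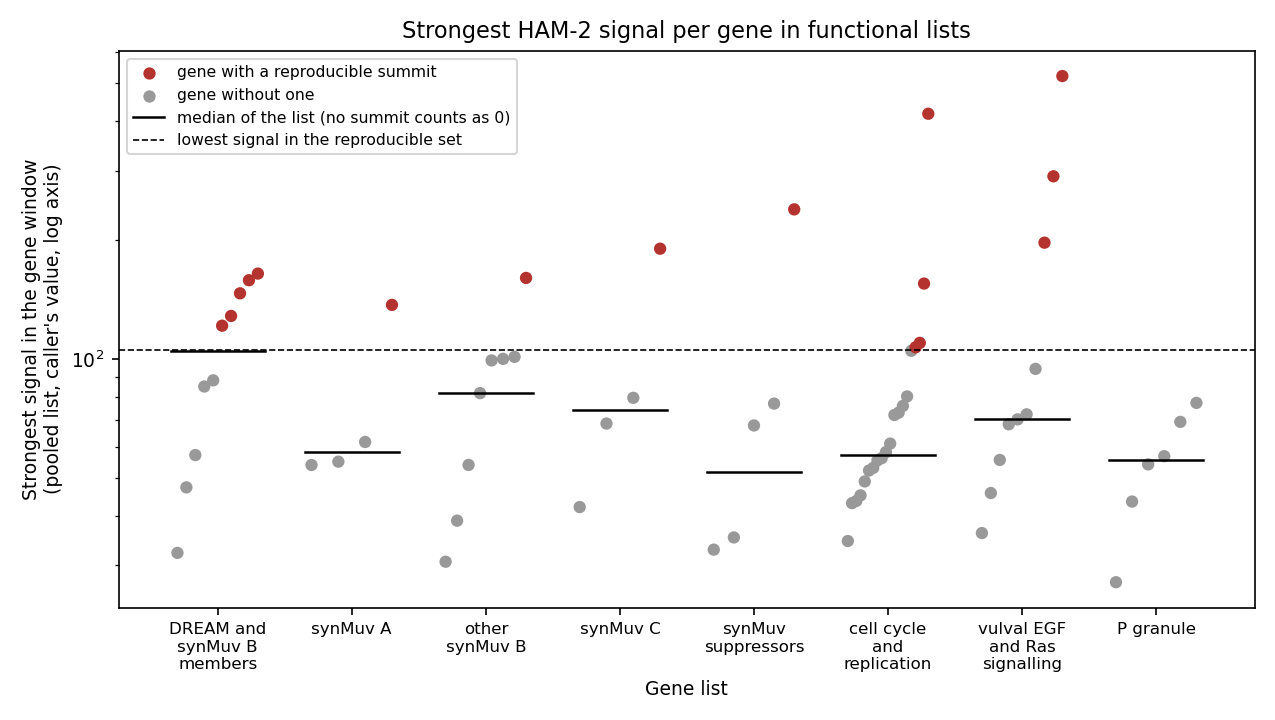
Strongest signal in each gene's window in the pooled list, on a log axis, for the 10 members and the 7 lists. Points are genes, coloured by whether they have a reproducible summit; 5 genes with no pooled summit are not drawn and count as 0 in the medians. The 5 members above the dashed line span 121.5 to 164.6, while single genes of other lists reach 418.2 (cye-1) and 521.0 (let-60).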

How the data were processed

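Peaks were analysed from 2 libraries of 1 group, immunoprecipitated with anti-GFP per the labels, which also enter the antibody as ham-2. Per the deposited listing, the authors derived a list of peaks and background from the alignment of each replicate and from both alignments together, each with 1 further file that the listing does not describe, on ce11. The reproducible set passed their IDR threshold. Aligner, peak caller and depth: not given in the sources used here. Control reads were not analysed here. The signal of each peak is the authors' deposited value, and summit positions come from the same lists. The deposited −log10 q-value was not used, because all reproducible peaks share its highest value. The reproducible set is exactly the 1945 strongest peaks of the pooled list, so it adds no evidence to the pooled rank.

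Gene models were those of Ensembl release 115 on WBcel235, and no peak ended beyond a chromosome of that assembly. Summits were assigned to gene windows that begin 2000 bp before the annotated start and close at the far end of the gene, with 1-based positions and offsets negative upstream. Replicate summits were matched within 100 bp. Words were counted on both strands. Window assignment was tested on simulated data. Python 3.11.15, numpy 2.4.6, pandas 2.3.3 and matplotlib 3.10.9 were used. The genes, lists and words were chosen with earlier results of these data known. The genes named are the 10 members, every gene whose window holds a reproducible member summit, and up to 5 genes per list with a reproducible summit; those named for a neighbouring 5′ end or a value near the threshold were chosen after their values were seen.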

Additional observations from a re-analysis of the deposited data

How the results depend on the processing

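Halving the reproducible set to its upper 972 peaks left 2 of the 10 genes with a summit and 2 summits, those of lin-13 and lin-36, against 5 and 5 in the whole set; the others rank below 972 by construction. Leaving out a replicate gave 5 genes and 5 summits in each case (range 5 to 5), with lin-35 in place of lin-9 when replicate 7 stood alone. The count in replicate 7 rests on a narrow margin, since lin-36 ranked 1943 and lin-53 ranked 1938 there, with the cut at 1945. An upstream limit of 1000 bp, windows around transcript 5′ ends and any base of the peak gave 5 genes each. A limit of 500 bp gave 4 (lin-13 lost), and peaks in the top lists of both replicates gave 4 (lin-9 lost). Summits matched in both replicates numbered 5 within 100 or 250 bp, 4 within 50 bp, and 4 where the match had to be in both top lists. Windows with an E2F-type or CHR word numbered 2 at 30 or 50 bp on each side of the summit and 3 at 100 bp, where lin-54 was added. Of 80 counts for single genes under the 8 settings, 73 were the same as in the whole set. Under a shorter upstream limit or a part of the set, a gene without a summit could gain none. Part of this agreement was thus fixed in advance. No paired analysis was possible because there is 1 group and no test. Read depths were not known, so no limit of detection could be set for the genes without a reproducible summit.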

Other observations

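Several genes of related function lay just below the reproducible set, whose lowest signal was 105.3 and where the strongest peak left out had 105.1. They were picked after their values had been seen. The mitotic kinase gene cdk-1 had a strongest pooled signal of 104.9. Among the other synMuv B genes, the histone deacetylase gene hda-1 had 101.3, lin-15B, a THAP-domain gene, had 100.1, and mep-1, a zinc-finger gene that works with the Mi-2 protein LET-418, had 99.2. In EGF and Ras signalling, the ETS factor gene lin-1 had 94.4. The members lin-52 (88.3) and lin-35 (85.2) lay further below, at pooled ranks 2722 and 2941, where the set ends at rank 1945. The counts of genes per list depend on where the threshold stands, and so does the share over all genes.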
